A study of Mus musculus with 28 samples.

Results

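Notch signalling genes were followed across 14 whole mouse kidney samples: the receptors Notch1, Notch2, Notch3 and Notch4, the ligands Dll1, Dll4 and Jag1, the glycosyltransferase Lfng and the target genes Hes1 and Hey1. The members are the array probe sets whose annotation gives exactly 1 of these 10 symbols. They are 10 of the 18193 genes named on an Affymetrix mouse array pair, read by 19 of its 45037 probe sets. The design called 430A holds 17 of the 19 and 430B holds 2, and 16 were bright enough to be tested. The labels set wild type embryonic kidneys against adult kidneys, and kidneys of embryos with targeted null alleles of both Hoxa11 and Hoxd11 (called null here) against wild type embryonic kidneys.

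Each of the 7 groups held 2 samples. Wild type kidneys came from CD-1 embryos of embryonic days E12.5, E13.5 and (the oldest) E16.5, with the kidneys of a sample pooled. A null sample was both kidneys of 1 embryo at the same stages, and the strain of these embryos is not stated, so strain, pooling and genotype cannot be told apart. Adult samples were both kidneys of 1 wild type mouse, whose strain and age are not stated either. Embryonic samples gave 30 ng of RNA prepared with a column kit and adult samples 100 ng prepared with RNAzol, so age and RNA preparation cannot be told apart, and all RNA was amplified by 2 rounds of in vitro transcription. The series describes its replicates as separate embryos or animals.

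Notch receptors are membrane proteins that are cut when a Delta or Jagged ligand on a neighbouring cell binds them. The freed intracellular part enters the nucleus, joins the DNA-binding protein RBPJ and switches on target genes, among them the transcriptional repressors Hes1 and Hey1, while fringe enzymes such as Lfng add sugars to the receptor and change which ligands it answers to. In the developing kidney the pathway is known for setting proximal fates in the early nephron, where Notch2, Jag1, Dll1 and Lfng act, and for vessel growth, where Notch1, Notch4 and Dll4 act in endothelium and Notch3 in the smooth muscle and pericytes around it.

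Values are MAS5 signals, the authors' linear brightness per probe set, scaled so that the mean after trimming 2% lay between 1500.4 and 1500.7 on 430A arrays and between 1500.3 and 1500.4 on 430B arrays. Signals under a floor (86.1 on 430A, 148.1 on 430B) were set to it before taking log2. Differences are given in log2 units with the SE of the limma fit, n = 2 samples a group, and the words rise and fall are kept for a Benjamini-Hochberg adjusted p under 0.05 over all 30564 tested probe sets. A gene is read first by its brightest tested 430A probe set. Signals of different probe sets are not comparable with each other. The number of arrays, 2 a group and design, limits the precision.

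Hoxa11, which the null embryos lack, read 1940.0 to 3430.6 in wild type embryonic samples and 211.0 to 500.1 in null samples (probe set 1420414). Of 4 kidney markers, 3 were measured (Gdnf, Wt1 and Cdh16), and all lay above the floor in every embryonic group. The 3' to 5' signal ratio of the actin control, a measure of RNA integrity and amplification, was 1.72 ± 0.438 (SD) in the 6 null and 3.46 ± 0.495 in the 6 wild type embryonic samples on 430A (p = 0.00216 by a two-sided exact permutation test, which cannot go lower with 6 samples on each side). Null and wild type arrays of a stage were never scanned on the same day, so a scan day effect cannot be told apart from genotype. The null comparisons were therefore also fitted with the log2 actin ratio as a covariate.

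In GRCm38.p6 the members lie on chromosomes 2, 3, 5, 16 and 17. Notch1 spans chr2:26457902-26503822, Dll4 chr2:119325784-119335666 and Jag1 chr2:137081451-137116520. Notch2 spans chr3:98013538-98150367 and Hey1 chr3:8663359-8667038. Lfng spans chr5:140607341-140615545 and Hes1 chr16:30065357-30067796. Dll1 spans chr17:15367354-15376932, Notch3 chr17:32120820-32166896 and Notch4 chr17:34564286-34588543. All are protein-coding genes.

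The 250 bases upstream of the start sites of 4 members are shown because the main results below concern these genes: Notch1, Notch4 and Dll4 each had a probe set that rose in null kidneys at all 3 stages, and Lfng was the member that fell. They are from RefSeq (GRCm38.p6), whose promoter table held 8 of the 10 members, all but Hes1 and Hey1. They are written on the gene's strand, at chr2:26503823-26504072 (minus strand, Notch1), chr17:34564045-34564294 (plus, Notch4, whose start site in this table lies just inside the annotated gene), chr2:119325534-119325783 (plus, Dll4) and chr5:140607091-140607340 (plus, Lfng). Capitals mark matches to 3 motifs searched on both strands: TGGGAA (the RBPJ core), CACGTG (the E-box bound by Hes and Hey proteins among others) and CCGGAA (a core bound by ETS factors, which include endothelial regulators).
Notch1: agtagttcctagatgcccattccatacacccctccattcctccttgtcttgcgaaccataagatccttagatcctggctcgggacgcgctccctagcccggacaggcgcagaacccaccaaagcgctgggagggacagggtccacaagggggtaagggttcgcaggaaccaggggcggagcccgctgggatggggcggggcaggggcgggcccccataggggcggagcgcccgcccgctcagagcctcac
Notch4: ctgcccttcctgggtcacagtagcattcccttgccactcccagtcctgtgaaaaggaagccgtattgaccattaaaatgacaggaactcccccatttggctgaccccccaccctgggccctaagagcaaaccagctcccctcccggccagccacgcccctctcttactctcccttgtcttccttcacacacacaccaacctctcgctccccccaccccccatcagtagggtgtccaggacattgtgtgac
Dll4: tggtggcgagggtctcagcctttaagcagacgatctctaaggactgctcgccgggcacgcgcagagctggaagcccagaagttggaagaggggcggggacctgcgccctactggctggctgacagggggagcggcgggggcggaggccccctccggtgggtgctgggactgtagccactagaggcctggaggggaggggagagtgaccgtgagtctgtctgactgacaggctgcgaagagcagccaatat
Lfng: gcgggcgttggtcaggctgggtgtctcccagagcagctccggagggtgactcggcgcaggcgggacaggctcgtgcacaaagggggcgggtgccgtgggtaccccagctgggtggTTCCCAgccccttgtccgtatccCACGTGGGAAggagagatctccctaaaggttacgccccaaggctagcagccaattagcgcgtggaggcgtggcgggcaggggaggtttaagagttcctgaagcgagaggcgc

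The Lfng window held the RBPJ core at -135 and at -108 and the E-box at -112, counted from the start site, and the E-box overlaps the second core. None of the 3 motifs matched in the windows of Notch1, Notch4 and Dll4. Of 32851 mouse promoter windows of this length, 21.6% held the RBPJ core, 6.02% the E-box and 12% the ETS core, so a single match is common and these are descriptions of letters, not of binding.

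In wild type kidneys a probe set of Jag1 and, less securely, a probe set of Notch1 rose between E13.5 and E16.5. Most of the genes were lower in the adult than at E16.5. Jag1 is the ligand best known from the nephron and from Alagille syndrome. Its 430B probe set 1434070 went from 4970.8 and 4576.8 at E12.5 through 7655.8 and 9087.4 at E13.5 to 25544.7 and 20662.1 at E16.5, with 2669.9 and 2779.6 in the adult. No samples of different stages overlapped, and the adult was lowest. From E13.5 to E16.5 it rose by 1.46 ± 0.243 (adjusted p = 0.00134), which is 2.75-fold, a call that held under all 15 alternatives that gave a value. The 430A probe sets of Jag1 were not called there, and their samples overlapped. Of these, 1421106 gave 0.82 ± 0.390 (adjusted p = 0.148) and 1421105 gave -0.32 ± 0.335 (adjusted p = 0.524).

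Dll1, the Delta ligand of the early nephron, read 1026.6 and 800.0 (E12.5), 1612.2 and 1769.1 (E13.5), 2472.3 and 2214.0 (E16.5), and 672.5 and 680.9 (adult). Its stages were in the same order without overlap, but neither step between embryonic stages passed (0.90 ± 0.274, adjusted p = 0.203, and 0.47 ± 0.274, adjusted p = 0.234). Notch1 probe set 1418634 read 872.5 and 925.9, then 1210.1 and 954.5, then 2378.7 and 2012.8 over the 3 stages, and 990.8 and 559.1 in the adult. It rose by 1.03 ± 0.305 from E13.5 to E16.5 (adjusted p = 0.0311), but leaving out any 1 of the 4 samples compared gave 0.85 to 1.20 with adjusted p = 0.0525 to 0.183. Scan day as a fixed block, no filter and a fit of the compared samples alone each left 1.03 (adjusted p = 0.0501 to 0.0773), and quantile normalization and median centring gave 0.84 and 0.86 (adjusted p = 0.0842 and 0.0666). The other Notch1 probe set, 1418633, gave 0.25 ± 0.407 (adjusted p = 0.693), with overlapping samples.

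Jag1 1434070 and Notch1 1418634 were the 2 of 16 member probe sets called between E13.5 and E16.5, both higher. There 11.5% of all probe sets were called higher and 9.07% lower. The median over the 16 was 0.46 against -0.10 over all probe sets. From E12.5 to E13.5 limma called 0 of 16, where 0.308% of all were called higher and 0.0851% lower. At an unadjusted p under 0.05, 7 of 16 member probe sets passed there, beside 11.2% of all probe sets.

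Setting E16.5 against the adult, 9 of 16 member probe sets were higher at E16.5 and 0 lower, in a comparison that called 24.6% of all probe sets higher and 18% lower. The median was 0.91 against 0.02 over all. Taking 1 probe set a gene, 8 of 10 genes were higher: all but Notch4 and Dll4.

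Hey1, a repressor that Notch induces in vessels and other tissues, showed the widest gap. Its probe set 1415999 read 2332.7 and 2466.9, then 2891.0 and 2641.1, then 3683.1 and 2600.3 in wild type embryos, and only 69.8 and 155.8 in the adult, where replicate 1 lay under the floor. The embryonic groups overlapped one another in part and all lay far above the adult. The difference at E16.5 was 4.74 ± 0.311 (adjusted p = 1.59e-07), 26.7-fold with the adult sample taken at the floor. Hes1, the other target gene, read 2032.7 and 2112.0, then 1805.6 and 1879.6, then 2203.7 and 3705.5 in wild type embryos, and 1566.0 and 932.7 in the adult. Its adult samples were again the lowest, by 1.24 ± 0.368 (adjusted p = 0.015, 2.36-fold), and the call was lost without wild type E16.5 replicate 2 or adult replicate 2 (0.87 in both, adjusted p = 0.138 to 0.148), under quantile normalization and median centring (1.01 and 0.97, adjusted p = 0.0604 and 0.0536) and with only the samples compared (adjusted p = 0.0798).

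**Figure D1:**
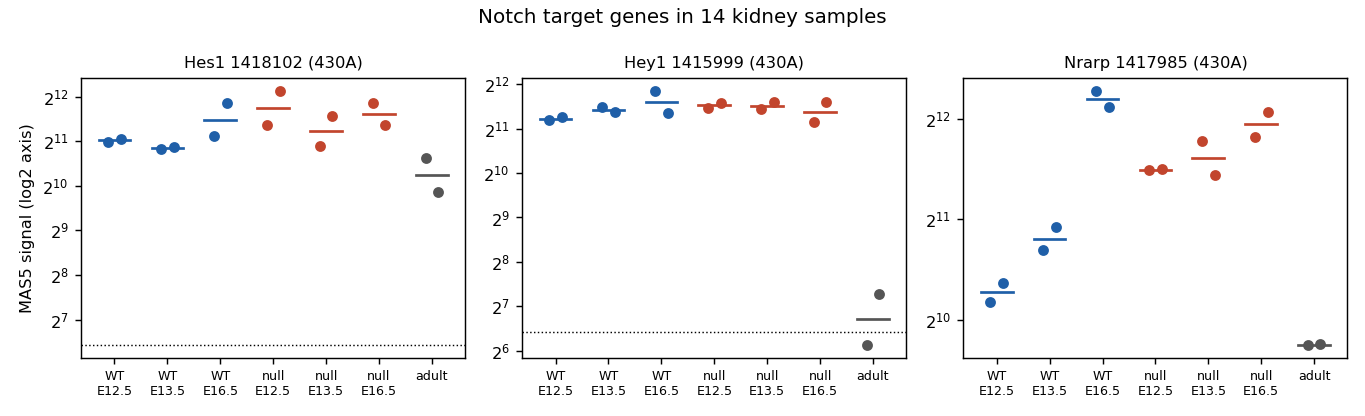
MAS5 signal of Hes1, Hey1 and Nrarp (y, log2 axis) in the 7 groups (x). Each point is 1 of 2 samples, the short line is the mean of the log2 values and the dotted line, where drawn, is the floor of 86.1. Hey1 lies at 2270.4 or above in all embryonic samples and at 69.8 and 155.8 in the adult, and the null and wild type samples of Hes1 and Hey1 overlap at E16.5.

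Among the ligands, Jag1 was higher at E16.5 than in the adult by 3.08 ± 0.243 on 430B (adjusted p = 5.42e-07, 8.43-fold) and by 3.49 ± 0.390 with 430A probe set 1421106 (adjusted p = 1.28e-05), whose adult replicate 1 lay under the floor. Dll1 was higher by 1.79 ± 0.274 (adjusted p = 0.000169, 3.46-fold). Of the receptors, Notch1 was higher by 1.56 ± 0.305 (adjusted p = 0.00112) and Notch2, the receptor most tied to proximal nephron fate, by 1.56 ± 0.336 (adjusted p = 0.00215). These 5 probe sets were called under all 15 alternatives. Not called were Jag1 1421105 (0.23 ± 0.335, adjusted p = 0.601) and Notch1 1418633 (0.76 ± 0.407, adjusted p = 0.146).

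Notch3 probe set 1421965 (0.98 ± 0.343, adjusted p = 0.033) and Lfng (0.83 ± 0.303, adjusted p = 0.0407) were also higher at E16.5 than in the adult, less securely. Lfng passed the filter for dim probe sets only through this E16.5 group. Notch3 lost its call without either wild type E16.5 sample or adult replicate 2 (adjusted p = 0.103 to 0.212), and Lfng without any 1 of the 4 samples (adjusted p = 0.0588 to 0.147). Quantile normalization, median centring, scan day as a fixed block, the actin covariate and a fit of the compared samples alone also ended both calls (adjusted p = 0.0536 to 0.162), and no filter ended that of Notch3 (adjusted p = 0.0752). Scan day as a random block kept both (adjusted p = 0.0326 and 0.0398). The other Notch3 probe set, 1421964, was not called (0.59 ± 0.451, adjusted p = 0.312). Notch4 probe set 1449146 read 318.7 and 410.7 at E16.5 and 379.2 and 396.3 in the adult, values that overlapped (-0.10 ± 0.379, adjusted p = 0.851).

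In kidneys lacking Hoxa11 and Hoxd11, several Notch receptors and ligands were higher than in wild type. Of 16 member probe sets, 9 rose and 0 fell at E12.5, where 12.4% of all probe sets rose and 6.19% fell. On day E13.5 the members' counts were 6 and 0, beside 14.4% and 8.97% of all. On day E16.5 they were 3 and 1, beside 15.9% and 19.2%. The members' medians were 1.02, 0.52 and 0.43, against -0.02, -0.02 and -0.22 over all probe sets. Testing took every probe set that was bright enough in any 1 group. Among those called, Notch1 1418633, Notch3 1421964, Notch4 1449146 and Dll4 1421826 passed only through null groups, which favours a rise over a fall. These counts and medians are therefore a description and give no separate support for a rise of the pathway. Stages were not ranked by these counts, since they came closer under other settings. Of the 14 members tested under quantile normalization 6, 6 and 3 rose and 0, 0 and 3 fell, and under median centring 6, 7 and 3 rose and 0, 0 and 1 fell. With no filter on dim probe sets 6, 7 and 2 of 16 rose and 0, 0 and 1 fell. With 1 probe set a gene, 5, 3 and 2 of 10 genes rose and 0, 0 and 1 fell.

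Markers of several cell types moved with genotype, and in whole kidneys more cells of a type and more RNA per cell cannot be told apart. Beside the counts below, 12.4%, 14.4% and 15.9% of all probe sets rose at the successive stages and 6.19%, 8.97% and 19.2% fell. A sum of signals is weighted to its brightest genes. Of 16 endothelial markers, 11, 10 and 10 rose at the successive stages and 0, 0 and 1 fell. Their summed 430A signal (15 genes, none at the floor) was 14770.4 to 16227.1, 17472.9 to 19421.8 and 22256.7 to 23555.8 in wild type kidneys of the 3 stages and 41879.2 to 49142.5, 34267.5 to 45145.3 and 57063.0 to 57435.8 in null kidneys. The 2 genotypes did not overlap at any stage.

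Of 7 measured mural and smooth muscle markers, 5, 3 and 4 rose at the 3 stages and 0 fell. Their sums were 9642.7 to 9957.9, 7627.3 to 11376.7 and 18594.4 to 21904.7 in wild type and 28780.5 to 33804.8, 15347.5 to 17947.5 and 28907.4 to 36775.3 in null kidneys. Of 8 early nephron markers, 3, 5 and 2 rose and 1, 0 and 1 fell. Their sums (7 genes) were 16569.3 to 17274.3, 21698.6 to 22423.5 and 21052.0 to 23367.5 in wild type and 19343.7 to 25709.8, 39072.7 to 40363.8 and 21397.8 to 27880.8 in null kidneys, overlapping at E16.5. No marker of these 3 lists that was summed lay at the floor in both samples of a group. The part of these shifts in the Notch differences was not tested.

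Other lists moved as well, some of them down. Podocyte markers rose (4, 5 and 3 of 7 at the successive stages, 0 falling), with sums of 6926.1 to 7658.0, 5262.5 to 5500.3 and 13395.3 to 16370.2 in wild type and 16297.8 to 17100.1, 14063.4 to 17099.1 and 33019.6 to 40553.9 in null kidneys. Of 8 ureteric markers 4 fell and 1 rose at E12.5, and 1 fell and 1 rose at each later stage. Their sums (7 genes) were lower in null kidneys at E12.5 and E13.5, at 7834.4 to 15574.1 against 23405.2 to 23769.3 and 16509.5 to 18416.6 against 22383.3 to 25182.8. At E16.5 they lay close, at 26027.1 to 27529.5 against 27696.8 to 28223.3. The median differences of the 8 markers were -0.6, -0.06 and 0.11, so the list did not fall evenly. Of 9 cap mesenchyme markers 4, 3 and 3 fell and 2, 3 and 1 rose. Of 4 erythroid markers 0, 1 and 3 fell and 0 rose, with E16.5 sums of 2442.8 to 4204.7 in null and 16644.3 to 21066.4 in wild type kidneys. Macrophage markers rose (3, 2 and 4 of 6, 0 falling), and of 4 neural markers 3, 2 and 1 rose and 0, 0 and 2 fell. Of 9 proximal tubule markers 1, 0 and 4 rose and 0 fell. Before E16.5 their share was thus no higher than that of all probe sets (12.4% and 14.4%). The part of these lists was not tested either.

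Notch1 was higher in null kidneys at every stage. In null kidneys probe set 1418634 read 2981.8 and 3678.1, then 5294.5 and 4589.1, then 4559.3 and 6236.8 at the successive stages, all above the highest wild type value of 2378.7. The rise was 3.69-fold, 4.59-fold and 2.44-fold at the successive stages, or 1.88, 2.20 and 1.29 in log2 units, each ± 0.305 (adjusted p = 0.00127, 0.000481 and 0.00592). Averaged over the stages it was 1.79 ± 0.176 (adjusted p = 7.91e-06), and 1.22 (adjusted p = 0.0169) with the actin covariate. At the single stages that covariate gave 1.28, 1.49 and 0.89 (adjusted p = 0.0749, 0.0513 and 0.0455), which ended the first and second call.

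The second Notch1 probe set, 1418633, read 276.7 and 262.8, 157.0 and 276.0, and 325.3 and 187.9 in wild type kidneys of the 3 stages. In null kidneys it read 525.4 and 804.0, 1063.3 and 647.2, and 350.4 and 463.4. It too was higher in null kidneys at each stage without overlap, and the rise was called at E12.5 (1.27 ± 0.407, adjusted p = 0.0445) and E13.5 (1.99 ± 0.407, adjusted p = 0.00414) but not at E16.5 (0.71 ± 0.407, adjusted p = 0.193). The call at E12.5 was lost under quantile normalization and median centring (0.80 in both, adjusted p = 0.178 and 0.167) and without any 1 of the 4 samples (0.96 to 1.58, adjusted p = 0.0573 to 0.246). Both calls of 1418633 were lost with the actin covariate (0.91 and 1.57, adjusted p = 0.413 and 0.16). At E16.5 the call of 1418634 was lost without null replicate 2 (1.06, adjusted p = 0.0621).

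Notch4, a receptor largely restricted to endothelium, rose at all 3 stages by its brightest probe set. That probe set, 1449146, read 291.4 and 472.8, 283.4 and 251.1, and 318.7 and 410.7 in wild type kidneys of the 3 stages, and 2212.2 and 2660.1, 1325.4 and 808.5, and 599.6 and 1169.6 in null kidneys. The null values were above all wild type values at each stage and were highest at E12.5. The rise was 6.54-fold, 3.88-fold and 2.32-fold at the successive stages, and the F test of unequal null effects did not pass (adjusted p = 0.158). In log2 units these are 2.71, 1.96 and 1.21, each ± 0.379 (adjusted p = 0.000519, 0.00311 and 0.0245).

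The E12.5 rise of Notch4 was called under all 14 alternatives, the actin covariate included (2.32, adjusted p = 0.0358). That covariate ended the later calls (1.49 and 0.95, adjusted p = 0.147 and 0.122). At E16.5 the call was lost without either wild type sample or null replicate 2 (0.73 to 1.39, adjusted p = 0.0548 to 0.227). The other Notch4 probe sets did not follow 1449146 at every stage. The 430B probe set 1436901 read 584.5 and 789.6 in wild type and 77.7 and 317.9 in null kidneys at E12.5, the opposite order (-1.65 ± 0.547, adjusted p = 0.0506, and 0.0408 with no mean-variance trend), and no group mean differed by as much later (0.19, adjusted p = 0.834, and 0.51, adjusted p = 0.494). It passed the filter for dim probe sets only through wild type E12.5, the group where it is high, which favours a fall there. Null E12.5 replicate 1 lay under the floor of 148.1. The 430A probe set 1456263 stayed under the filter for dim probe sets, with signals of 104.5 to 350.3. Fitted with no filter, it was higher in null kidneys by 0.76 at E12.5 (adjusted p = 0.0493) and by 0.36 at E13.5 (adjusted p = 0.272). At E16.5 it was lower (-0.89, adjusted p = 0.0161).

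Notch3, the receptor of vascular smooth muscle and pericytes, was higher in null kidneys at E12.5 and E13.5. Its brighter probe set 1421965, which may also read related transcripts, gave 3279.2 and 3804.3, 2828.8 and 1355.5, and 2680.9 and 2639.6 in wild type kidneys of the 3 stages. Null kidneys gave 7334.3 and 6322.2, 4291.3 and 6138.1, and 1888.6 and 2389.0. Null kidneys were thus above wild type at the first pair of stages and below it at E16.5. The differences were 0.95 ± 0.343 (adjusted p = 0.0704), 1.39 ± 0.343 (adjusted p = 0.0113) and -0.33 ± 0.343 (adjusted p = 0.484), and the F test that they differ between stages gave an adjusted p of 0.0595.

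Notch3 probe set 1421964 rose by 1.85 ± 0.451 at E12.5 (adjusted p = 0.0132) and 2.32 ± 0.451 at E13.5 (adjusted p = 0.00318), and was 0.93 ± 0.451 higher at E16.5 (adjusted p = 0.125). It read 181.5 and 371.3, 176.6 and 154.1, and 293.8 and 158.2 in wild type and 1110.0 and 787.3, 1010.2 and 670.5, and 380.3 and 441.5 in null kidneys. The genotypes did not overlap at any stage. Its E12.5 call was lost without wild type or null replicate 1 (1.33 to 1.60, adjusted p = 0.0842 to 0.149), and the E13.5 call of 1421965 without wild type or null replicate 2 (0.86 to 1.13, adjusted p = 0.0867 to 0.121). The actin covariate ended the calls of 1421964 (1.18 and 1.53, adjusted p = 0.296 and 0.185) and that of 1421965 (1.30, adjusted p = 0.179).

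By its tested probe set, Notch2 differed between the genotypes in a way that changed with stage. Probe set 1455556 read 912.5 and 1250.5 in wild type and 2095.7 and 2486.9 in null kidneys at E12.5. At E13.5 it read 1352.2 and 2393.4 against 1820.9 and 2074.7, and at E16.5 2320.4 and 2931.8 against 1678.3 and 1261.5. The null samples were higher at E12.5, within the wild type range at E13.5 and lower at E16.5.

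The Notch2 differences were 1.10 ± 0.336 (adjusted p = 0.0375), 0.11 ± 0.336 (adjusted p = 0.839) and -0.84 ± 0.336 (adjusted p = 0.0666), and the F test of unequal null effects passed (adjusted p = 0.0372), as it did for 14.3% of all probe sets. The E12.5 call was lost without any 1 of the 4 samples (0.87 to 1.32, adjusted p = 0.0792 to 0.24) and under quantile normalization (0.85, adjusted p = 0.103), median centring (0.62, adjusted p = 0.2) or the actin covariate (1.26, adjusted p = 0.166). The other Notch2 probe set, 1451889, read 106.7 to 443.8 and was not tested. Fitted with no filter, it gave 1.18, 0.52 and 0.46 at the successive stages (adjusted p = 0.14, 0.491 and 0.542). Its F test of unequal null effects did not pass (adjusted p = 0.708).

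**Figure D2:**
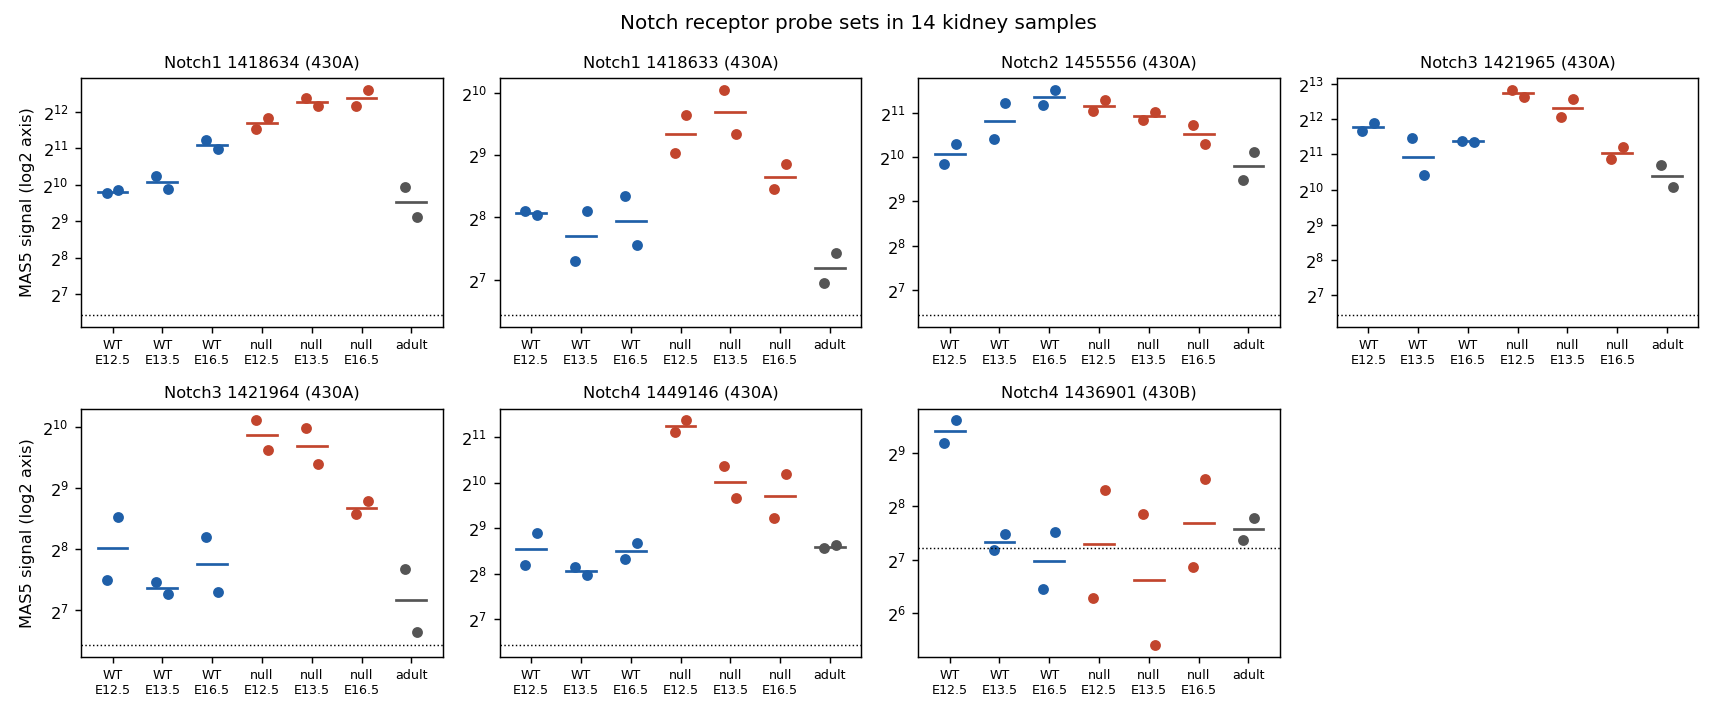
MAS5 signal (y, log2 axis) of the 7 tested Notch receptor probe sets in the 7 groups (x), blue for wild type embryonic, red for null and grey for adult kidneys. Points are the 2 samples of a group, short lines the means of the log2 values and dotted lines the floors of 86.1 (430A) and 148.1 (430B). Null samples of Notch1 1418634 and Notch4 1449146 lie above all wild type samples, and Notch4 1436901 shows the opposite order at E12.5.

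Of the ligands, Dll4, the Delta ligand of arterial and sprouting endothelium, was read differently by its probe sets. Probe set 1421826 read 49.8 and 28.0, 152.9 and 29.6, and 261.0 and 157.3 in wild type kidneys of the 3 stages, so that both E12.5 samples and E13.5 replicate 2 lay under the floor. In null kidneys it read 374.9 and 357.5, 453.2 and 322.2, and 542.4 and 599.3. Every null value was above every wild type value. It was at least 4.25-fold higher in null kidneys at E12.5 (adjusted p = 0.00356), with the wild type samples at the floor, and rose by 1.74 and 1.49 on days E13.5 and E16.5, each ± 0.402 (adjusted p = 0.00823 and 0.0119).

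The E13.5 call of Dll4 1421826 was lost without wild type replicate 2 or null replicate 1 (1.32 to 1.49, adjusted p = 0.0635 to 0.0825), and the E16.5 call without wild type or null replicate 2 (1.13 to 1.42, adjusted p = 0.0644 to 0.113). All 3 calls were lost with the actin covariate (1.61, 1.17 and 1.17, adjusted p = 0.126, 0.276 and 0.0735). The brighter Dll4 probe set 1421827 read 217.2 and 242.8, 407.7 and 377.6, and 433.5 and 295.6 in wild type and 488.9 and 306.1, 290.0 and 196.7, and 466.9 and 454.2 in null kidneys. Its null samples were higher at E12.5 and E16.5 and lower at E13.5, and none of these differences passed (0.75, -0.72 and 0.36, each ± 0.341, adjusted p = 0.141, 0.145 and 0.428).

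Jag1 was higher in null kidneys at E12.5. The 430B probe set 1434070 of null kidneys read 11047.3 and 12304.5, then 13190.2 and 12587.6, then 19784.7 and 16725.9 over the 3 stages. Set against the wild type values above, the null samples were higher at E12.5 and E13.5 and lower at E16.5, without overlap. The differences were 1.29 ± 0.243 (adjusted p = 0.00297, 2.44-fold), 0.63 ± 0.243 (adjusted p = 0.0768) and -0.34 ± 0.243 (adjusted p = 0.297), and they differed between stages (F test, adjusted p = 0.0168). With the actin ratio in the model the E12.5 difference was 1.21 (adjusted p = 0.158). Wild type kidneys thus spanned a wider range over the 3 stages than null kidneys.

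Jag1 probe set 1421106 read 263.4 and 326.4, 474.6 and 790.5, and 1555.1 and 752.4 in wild type and 1176.8 and 859.5, 1611.2 and 1051.5, and 2017.8 and 2009.7 in null kidneys. Null samples were above wild type at all stages, by 1.78 ± 0.390 (adjusted p = 0.00763), 1.09 ± 0.390 (adjusted p = 0.0585) and 0.90 ± 0.390 (adjusted p = 0.0894). The E12.5 call was lost without wild type or null replicate 1 (1.55 to 1.62, adjusted p = 0.0557 to 0.0722) and with the actin covariate (1.72, adjusted p = 0.111). A dimmer Jag1 probe set, 1421105, with signals of 167.2 to 502.9 in embryos, was not called at any stage (adjusted p = 0.611, 0.444 and 0.103).

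In null kidneys Dll1 read 1525.2 and 1879.0, then 1952.3 and 2621.2, then 2340.0 and 3161.3 over the 3 stages. It was above wild type at E12.5 and E13.5 and overlapped it at E16.5. The rise passed at E12.5 (0.90 ± 0.274, adjusted p = 0.036) and not later (0.42, adjusted p = 0.284, and 0.22, adjusted p = 0.562). It was lost without any 1 of the 4 samples (0.72 to 1.08, adjusted p = 0.0595 to 0.228) and under quantile normalization or median centring (0.59 and 0.43, adjusted p = 0.182 and 0.299), and the actin covariate gave 0.81 (adjusted p = 0.279).

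Lfng, the fringe enzyme expressed in the renal vesicle and its derivatives, was the member that fell, and of the single stages only E16.5 was called. Probe set 1420643 read 267.2 and 234.2, 404.1 and 356.0, and 582.6 and 633.3 in wild type kidneys of the 3 stages and 334.6 and 349.5 in the adult. In null kidneys it read 216.1 and 340.1, 353.3 and 375.7, and 242.6 and 201.2. The genotypes overlapped at E12.5 and E13.5, and at E16.5 both null samples lay below all wild type samples from E13.5 on.

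The Lfng differences at the 3 stages were 0.12, -0.06 and -1.46, each ± 0.303 (adjusted p = 0.825, 0.912 and 0.00269), and the last is 2.75-fold lower. It was called at E16.5 under all 13 alternatives that gave a value, the actin covariate included (-1.50, adjusted p = 0.00987). The probe set passed the filter for dim probe sets only through wild type E16.5, the group where it is high, which favours a fall there. The filter at the 70th percentile left it untested, and no filter kept the call. The F test of unequal null effects passed (adjusted p = 0.0393). A second Lfng probe set, 1449943, read 8.4 to 16.6 in all samples, under the floor, and was not tested.

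**Figure D3:**
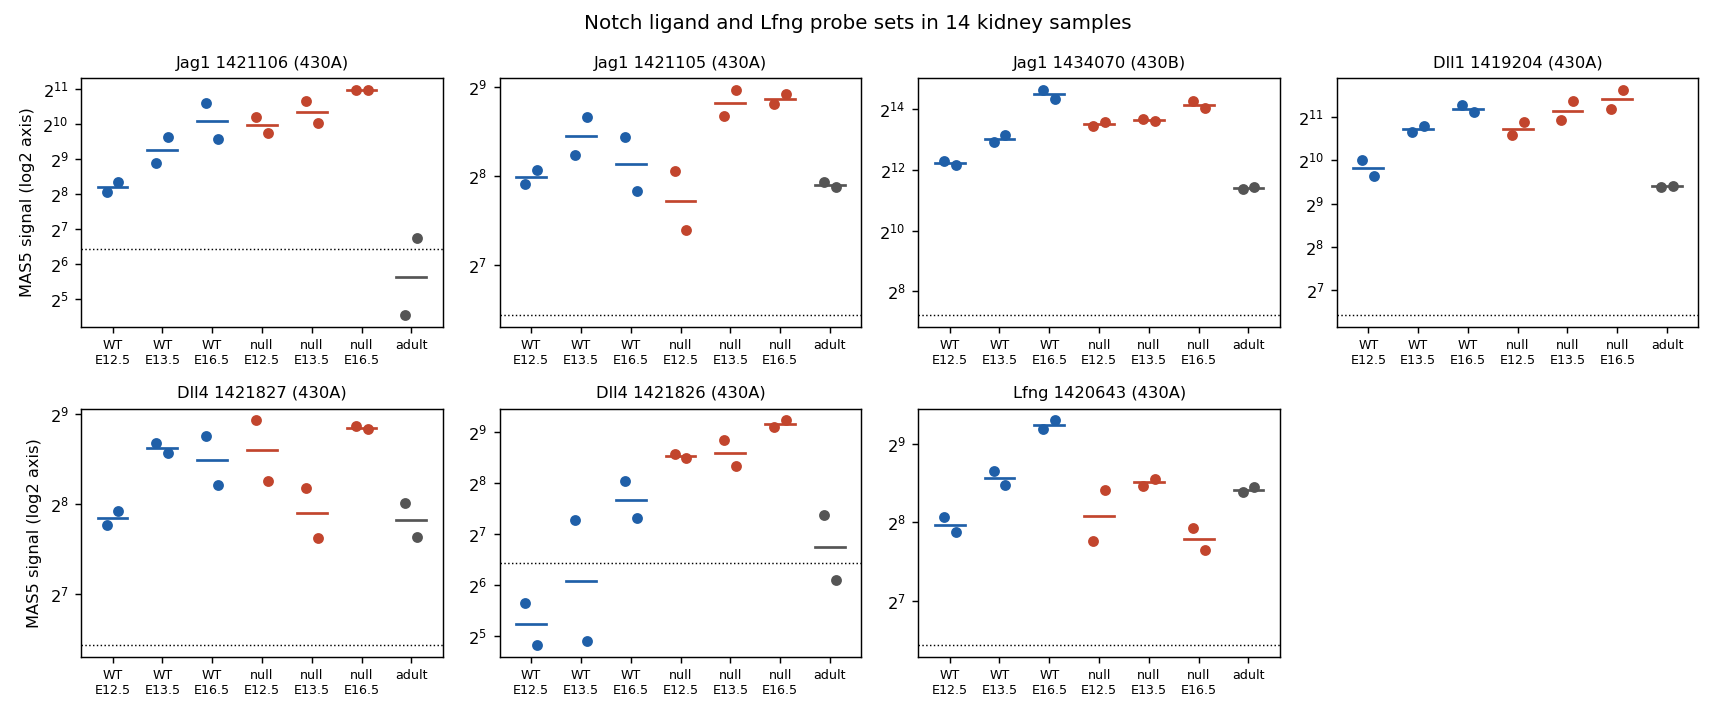
MAS5 signal (y, log2 axis) of the 6 tested ligand probe sets and Lfng in the 7 groups (x), with points for the 2 samples of a group, short lines for the means of the log2 values and dotted lines for the floors. Every null sample of Dll4 1421826 is above every wild type sample, and Lfng reads 582.6 and 633.3 in wild type against 242.6 and 201.2 in null kidneys at E16.5.

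The target genes Hes1 and Hey1 were not called in any null comparison. Hes1 read 2647.7 and 4461.0, 1889.8 and 3019.3, and 3699.0 and 2627.8 in null kidneys, above wild type at E12.5 and E13.5 and overlapping it at E16.5. Its differences were 0.73 ± 0.368 (adjusted p = 0.184), 0.38 ± 0.368 (adjusted p = 0.487) and 0.13 ± 0.368 (adjusted p = 0.815). Hey1 read 2814.7 and 3080.5, 2780.1 and 3106.8, and 2270.4 and 3126.9, with differences of 0.30, 0.09 and -0.22, each ± 0.311 (adjusted p = 0.538, 0.864 and 0.615). Only its E12.5 samples did not overlap. These SEs leave room for changes that were not detectable with 2 arrays a group.

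**Figure D4:**
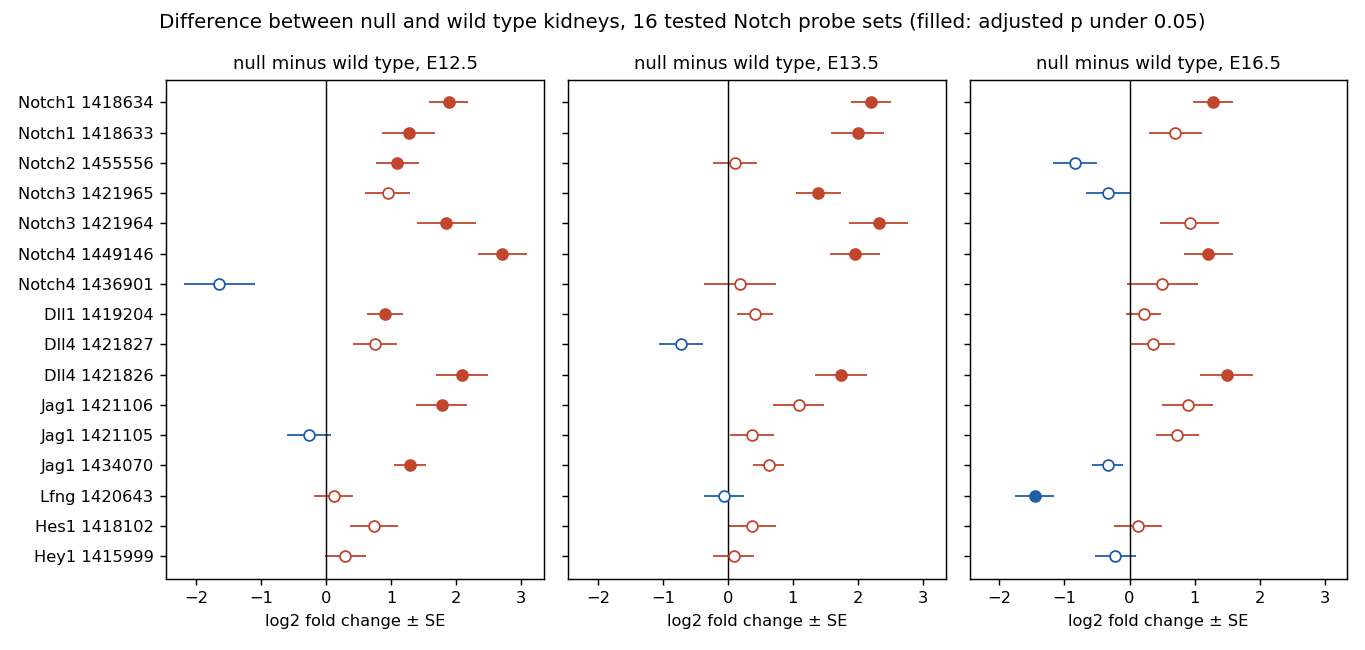
Log2 fold change ± SE (x), null minus wild type, of the 16 tested Notch probe sets (y) in 3 panels, 1 for each embryonic stage. Filled points have an adjusted p under 0.05 and red points lie above 0. There are 9 filled points at E12.5, 6 at E13.5 and 4 at E16.5, where Lfng is the filled point below 0.

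Averaged over the stages, 9 of 16 member probe sets rose and 1 fell, where 23.4% of all probe sets rose and 23.5% fell. The limit set by the filter, given above for the single stages, holds for these counts too. The 9 were both probe sets of Notch1 and of Notch3, Notch4 1449146 (1.96 ± 0.219, adjusted p = 1.79e-05), Dll4 1421826 (1.77 ± 0.232, adjusted p = 5.86e-05), Jag1 1421106 (1.25 ± 0.225, adjusted p = 0.000601) and 1434070 (0.53 ± 0.140, adjusted p = 0.00762), and Dll1 (0.51 ± 0.158, adjusted p = 0.017). The fall was that of Lfng (-0.47 ± 0.175, adjusted p = 0.0419), which rested on E16.5: over E12.5 and E13.5 alone it was 0.03 (adjusted p = 0.93), and 10 of the 12 embryonic samples, left out singly, ended the call (-0.50 to -0.36, adjusted p = 0.0531 to 0.112), as did an offset in place of the floor (-0.38, adjusted p = 0.0502). Quantile normalization ended the calls of Dll1 and Jag1 1434070 (adjusted p = 0.196 and 0.0758), and median centring those of Dll1 and Notch3 1421965 (adjusted p = 0.228 and 0.126). Dll1 lost its call without wild type E12.5 replicate 2, null E13.5 replicate 2 or null E16.5 replicate 2 (0.44 to 0.45, adjusted p = 0.0504 to 0.0604).

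With the actin ratio as a covariate far fewer members were called. That ratio did not overlap between the genotypes, so these losses cannot be assigned to RNA quality or to genotype. The counts were then 1 at E12.5 (Notch4 1449146), 0 at E13.5, 2 at E16.5 (Notch1 1418634 at 0.89, adjusted p = 0.0455, and Lfng) and 2 in the stage average (Notch1 1418634, and Notch4 1449146 at 1.59, adjusted p = 0.0254). The other 8 calls of the average then had an adjusted p of 0.0606 to 0.379. All probe sets lost calls too, with 2.55%, 3.95%, 28.7% and 11.1% called in either direction, in place of 18.6%, 23.4%, 35.1% and 46.9%. Fitting only the 4 samples compared ended 4 member calls at E12.5 (Notch1 1418633, Notch2, Notch3 1421964 and Dll1, adjusted p = 0.0649 to 0.0897) and that of Notch4 at E16.5 (adjusted p = 0.0734). It left 0 member calls at E13.5, where Notch1 1418634 gave the same 2.20 with an adjusted p of 0.0504 and 1.17% of all probe sets were called. With no filter on dim probe sets the E12.5 calls of Notch1 1418633, Notch2 and Notch3 1421964 and the E16.5 call of Notch4 were lost (adjusted p = 0.0512 to 0.0982).

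The wider pathway was followed with 44 other Notch genes, of which 34 were measured, each by 1 probe set. In null kidneys 10, 18 and 10 of them rose at the 3 stages and 1, 2 and 3 fell, and in the stage average 20 rose and 5 fell. Of all probe sets 12.4%, 14.4% and 15.9% rose and 6.19%, 8.97% and 19.2% fell, with 23.4% and 23.5% in the average. The filter by the brightest group applied to these genes too. The medians were 0.58, 0.81, 0.58 and 0.69, against -0.02, -0.02, -0.22 and -0.10 over all probe sets. With the actin covariate 1, 0 and 7 rose and 0, 0 and 3 fell, with 8 and 0 in the average, and with only the samples compared 1 rose and 0 fell at E13.5. Of 33 genes tested, in the order of the stages, quantile normalization left 7, 11 and 5 rising and 0, 1 and 4 falling, and median centring 6, 11 and 10 rising and 3, 2 and 3 falling.

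Among the enzymes that modify receptors, Mfng, another fringe, rose at all 3 stages. It read 569.7 to 834.6 in wild type embryonic and 1555.6 to 2770.9 in null samples, and the rises were 1.63, 1.26 and 1.61 (adjusted p = 0.00343 for the first and 0.00178 for the last). The actin covariate gave 1.40, 0.98 and 1.46 (adjusted p = 0.102, 0.255 and 0.012), so that only the E16.5 rise kept its call. At E16.5 Mfng therefore rose where Lfng fell. Pofut1, which adds O-fucose to the receptor, rose by 1.95 in the average (adjusted p = 0.00011), from signals of 46.9 to 183.0 in wild type embryos that lay partly under the floor. It kept that call with the covariate (1.82, adjusted p = 0.0449). This probe set passed the filter for dim probe sets only through null kidneys, which favours a rise. The other Pofut1 probe set, 1443881, rose by 0.63 ± 0.20 in the average (adjusted p = 0.022). It was not called at any single stage (adjusted p = 0.744, 0.0954 and 0.0807).

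Among ligand-side genes, Neurl1a, a ubiquitin ligase of the neuralized family, rose by 2.01 at E12.5 (adjusted p = 0.00203, and 0.0478 with the actin covariate). Jag2, a second Jagged ligand, rose at E13.5 (1.61, adjusted p = 0.0122, and 0.97, adjusted p = 0.363, with the covariate), while its other probe set 1426431 rose at E12.5 and E16.5 (2.05 and 2.17, adjusted p = 0.00573 and 0.00201) and not at E13.5 (0.61, adjusted p = 0.32). Dlk1, a Delta-like protein made by embryonic stroma that does not act as a classical Notch ligand, rose by 2.37 in the average (adjusted p = 2.24e-05, and 1.63, adjusted p = 0.0403, with the covariate). Of the 9 stromal markers, which include Dlk1, 6, 6 and 4 rose at the 3 stages and 0 fell. Of all probe sets 12.4%, 14.4% and 15.9% rose there.

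Other target genes of the pathway did not move together. Nrarp, a Notch-induced inhibitor of the pathway, read 1162.3 and 1327.1, 1659.0 and 1943.5, and 4944.3 and 4433.8 in wild type and 2869.9 and 2895.7, 3513.4 and 2779.2, and 3615.3 and 4276.9 in null kidneys. It was higher in null kidneys at E12.5 (1.22 ± 0.240, adjusted p = 0.0042) and E13.5 (0.80 ± 0.240, adjusted p = 0.0289) and lower, without a call, at E16.5 (-0.25, adjusted p = 0.436), and these differed between stages (F test, adjusted p = 0.0244). Its other probe set 1417986 stayed higher at E16.5 (0.90, adjusted p = 0.0516). Both Nrarp calls were lost with the actin covariate (1.04 and 0.59, adjusted p = 0.109 and 0.376). Heyl, a Hey relative of vessel walls, rose at E13.5 (1.47 ± 0.282, adjusted p = 0.00293, and 1.28, adjusted p = 0.109, with the covariate), and its probe set 1419303 rose at all 3 stages (1.60, 1.73 and 1.63, adjusted p = 0.0172, 0.00936 and 0.00821).

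Hes5, a Hes repressor of the early nephron, went the other way. Probe set 1456010 read 475.9 and 59.1, 714.3 and 314.8, and 797.3 and 1979.4 in wild type embryos, 57.1 and 159.7, 67.9 and 126.4, and 142.3 and 122.4 in null embryos, and 29.4 and 28.3 in the adult. Null samples were below wild type at E13.5 and E16.5, where it fell by 2.18 (adjusted p = 0.0326) and 3.25 (adjusted p = 0.0027) on the log2 scale. Its other probe set 1423146 fell at E16.5 (-1.02 ± 0.37, adjusted p = 0.0454) and gave -0.90 at E13.5 (adjusted p = 0.092). With the actin covariate the E13.5 call of 1456010 was lost (-1.60, adjusted p = 0.4), and its E16.5 fall was -2.92 (adjusted p = 0.0175). Probe set 1456010 passed the filter for dim probe sets only through wild type embryonic groups, where it is high, which favours a fall. Wild type E12.5 replicate 2 (59.1), null E12.5 replicate 1 (57.1), null E13.5 replicate 1 (67.9) and the adult samples lay under the floor.

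With 1 probe set a gene, further falls at E16.5 were those of Fbxw7, which marks the cut receptor for breakdown (-1.97, adjusted p = 0.00352), and Adam10, a protease that cuts the receptor (-1.70, adjusted p = 0.00121). Probe sets beyond these moved both ways at E16.5. Mib1 1433853 and 1454740 and Itch 1431316 fell (-2.64, -1.95 and -1.96, adjusted p = 0.00192, 0.00645 and 0.00451), while those of Jag2 and Heyl given above rose. Fbxw7 read 2487.8 and 1418.1 in wild type and 723.0 and 317.3 in null kidneys, and Adam10 5911.8 and 5982.6 against 2164.4 and 1556.5, in neither case with overlap. Both calls held with the actin covariate (-1.86 and -1.32, adjusted p = 0.0186 and 0.00919). The Adam10 probe set 1450104, however, rose (2.55, adjusted p = 0.0176), so its probe sets disagree. In the stage average the probe sets shown for Adam10, Fbxw7 and Snw1 fell while others of these genes rose (1450104 by 1.21, 1424986 by 1.04 and 1459026 by 1.15, adjusted p = 0.0336, 0.0137 and 0.017). The average hides a change with stage: Snw1 1459026 gave 3.37, 3.1 and -3.03, the last with adjusted p = 0.00223. Fbxw7 1424986 gave 2.17, 1.98 and -1.02, the last without a call (adjusted p = 0.153). The falls of Adam10, Fbxw7 and Snw1 in the average were not called with the actin covariate (adjusted p = 0.833, 0.373 and 0.0662). In wild type kidneys, Nrarp (1.38, adjusted p = 0.0019), Fbxw7 and Numb, an inhibitor of Notch, rose between E13.5 and E16.5. Hes6, another Hes family member, fell (-1.71, adjusted p = 0.00725). These were 3 and 1 of the 34, beside 11.5% and 9.07% of all probe sets. Other probe sets went the same way without a call: Nrarp 1417986 (0.59, adjusted p = 0.221), Fbxw7 1424986 (1.57, adjusted p = 0.0528) and Hes6 1452021 (-1.39, adjusted p = 0.0603). Against the adult, 11 of 34 were higher at E16.5 and 3 lower, beside 24.6% and 18% of all probe sets. Nrarp was among the higher (2.44, adjusted p = 4.62e-06).

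**Figure D5:**
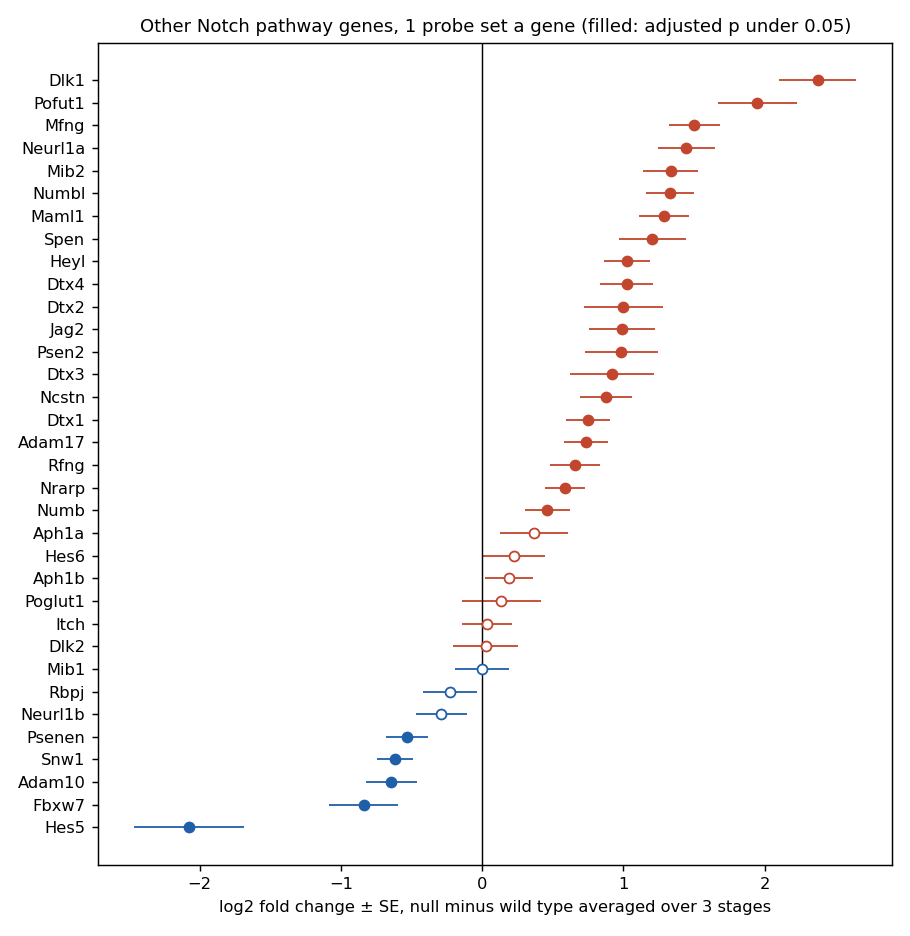
Log2 fold change ± SE (x), null minus wild type averaged over 3 stages, of 34 other Notch pathway genes (y), each read by 1 probe set. Filled points have an adjusted p under 0.05: 20 lie above 0, led by Dlk1 at 2.37, and 5 below, led by Hes5 at -2.07.

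The genes most like each member over the 14 samples, by Pearson correlation of log2 signal on 430A among 13418 or 13419 candidates, are given as a description, since samples of a group share stage and genotype. For Notch1 they were Col4a1 (0.962), Olfml2b (0.961) and Dapk1 (0.96), and for Notch4 Runx1t1 (0.955), Map1b (0.947) and Scmh1 (0.946). For Notch3 they were Fam117a (0.945), Zfp703 (0.944) and Plxnc1 (0.943), and for Notch2 Gtpbp4 (0.901), Ywhaz (0.9) and Ncam1 (0.89).

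For Jag1 they were Nrarp (0.971), Adnp2 (0.97) and Col3a1 (0.969), and Dll1 had Lamb1 (0.93), Nrarp (0.922) and Jag1 (0.922). Both ligands thus had Nrarp among their 3 nearest profiles. Hey1, whose adult values set it apart, had Cdh11 (0.987), Peg3 (0.986) and Ndn (0.985). Hes1 had Lrrfip1 (0.923), Cnn2 (0.892) and Bag2 (0.872), and Lfng had Ppp3r1 (0.889), Klf5 (0.87) and Ppp1cb (0.841). Dll4 probe set 1421827 had the weakest likeness, 0.807 at most.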

How the data were processed

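The 14 kidney samples were hybridised to 28 arrays, with both designs, 430A and 430B, used for each. The deposited values are linear intensity per probe set, the authors' MAS5 signal per the submitters' processing notes (version and settings not given in the sources used here). Deposited run records gave chip type and scan day (7 days on 430A, 5 on 430B). Those of adult replicate 2 name the other design and were exchanged, for scan day only. Probe sets took their names from GEO's platform annotation where it gives 1 symbol (20380 on 430A, 14565 on 430B).

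The floor is each design's 20th percentile. Testing required a group mean of log2 signal above the design's 50th percentile, which kept 14576 probe sets of 430A and 15988 of 430B. Dropped were 64 control probe sets in either design and the 430B copies of 100 shared probe sets. The designs were fitted one by one in limma 3.58.1 (R 4.3.3) with 7 group means, 7 residual degrees of freedom and a mean-variance trend in eBayes. Tests were two-sided and adjusted by Benjamini-Hochberg across designs. An F test asked whether null effects were unequal between stages. The fit was tested on simulated data. Figures used Python 3.11.15 and matplotlib 3.10.9.

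The members and lists were chosen with earlier results of these data known. All members are named with every probe set. Other pathway genes may be named, up to 12, where called in a comparison, and their further probe sets were looked up after seeing the data. Alternatives tried were 2 scalings (quantile, median), an offset for the floor, other filters (none, or the 70th percentile), eBayes with no trend, blocks for replicate number or for scan day (random, fixed), the log2 actin ratio as a covariate, fits of the compared groups alone, and the omission of single samples.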

Additional observations from a re-analysis of the deposited data

Results flagged for a closer look

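For 3 member probe sets the difference between null and wild type kidneys was unequal across E12.5, E13.5 and E16.5 by limma's F test, where 14.3% of all probe sets passed. They were Jag1 1434070 (adjusted p = 0.0168), with differences of 1.29, 0.63 and -0.34, Notch2 1455556 (adjusted p = 0.0372), with 1.10, 0.11 and -0.84, and Lfng 1420643 (adjusted p = 0.0393), with 0.12, -0.06 and -1.46. The Jag1 result was lost without wild type E12.5 replicate 2, wild type E16.5 replicate 1 or null E16.5 replicate 2 (adjusted p = 0.0634 to 0.0835). Notch2 was lost without 9 of the 12 embryonic samples in turn (adjusted p = 0.0505 to 0.13) and Lfng without 10 (adjusted p = 0.0543 to 0.136).
Median centring gave adjusted p = 0.131, 0.0964 and 0.129 for Jag1, Notch2 and Lfng, and quantile normalization 0.0536 for Notch2 and 0.235 for Lfng. The actin covariate gave 0.0772, 0.0578 and 0.0793 for the 3. No filter gave 0.0799 for Notch2, and no mean-variance trend 0.0602 for Jag1.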

How the results depend on the processing

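Member calls at E12.5 (9) fell to 1 with the actin covariate and ranged from 4 to 6 with 1 sample left out (4 without wild type or null replicate 1). Calls at E13.5 (6) fell to 3 under the filter at the 70th percentile, which tests fewer members, to 0 with the actin covariate and to 0 with only the samples compared, and ranged from 4 to 6 with 1 sample left out. Calls at E16.5 (4) fell to 2 under the stricter filter and to 2 with the actin covariate, and ranged from 1 to 4 (1 without null replicate 2, 2 without wild type replicate 2). Calls in the average (10) fell to 6 and 2 under the same settings and ranged from 8 to 10. There the Lfng fall of -0.47 became 0.03 without E16.5. Calls between wild type E13.5 and E16.5 (2) were 1 under quantile normalization, median centring, no filter, a fixed block for scan day and the fit of the compared groups alone, and 1 without any sample. Calls from E12.5 to E13.5 stayed at 0, and those of E16.5 against adult (9) ranged from 6 to 9. The 3 unequal null effects became 1 under quantile normalization and 0 under median centring and the actin covariate, and ranged from 0 to 4 (0 without wild type E12.5 replicate 2, wild type E16.5 replicate 1 or null E16.5 replicate 2). Except where the filter tests fewer members, the cause was not tested. With the replicate block, calls were 9, 6, 4 and 9 in the null comparisons, where the 9 at E12.5 were 8 rises and 1 fall: Notch1 1418633 was lost (1.27, adjusted p = 0.0574) and Notch4 1436901 fell (-1.65, adjusted p = 0.0456). That fall was also called with no mean-variance trend (adjusted p = 0.0408), for 9 rises and 1 fall. Notch4 1436901 passed the filter only through wild type E12.5, where it is high, which favours a fall. The block gave 2 and 8 in the later wild type comparisons, and 2 in the F test. Replicate numbers do not pair the samples (correlation of deviations -0.353 to 0.177). Scaling moved the share of higher among all calls from 66.7% to 44.5% at E12.5 (median centring), from 45.3% to 62.2% at E16.5 and from 78.3% to 50.6% between E12.5 and E13.5, and moved the median of all probe sets at E16.5 from -0.22 to 0.14. Under quantile normalization Jag1 1434070 and Notch2 also fell at E16.5. A fixed block for scan day could be fitted only for the later wild type comparisons. Dim probe sets near the floor have compressed fold changes.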
